A study of Mus musculus with 5 samples.

Results

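Epithelial cells and mesenchymal cells read many of the same genes but splice them differently. Esrp1 and Esrp2 are RNA-binding proteins of epithelial cells that favour the epithelial form of their targets, among them Cd44, Fgfr2, Ctnnd1 and Enah, and both are switched off when such cells turn mesenchymal. Rbfox2 is a splicing regulator of another family, made in most cell types, that acts on part of the same targets. These 7 genes were followed in 5 RNA-seq libraries from mouse thyroid tumor cell lines, with each RefSeq transcript kept apart. The genes were taken by symbol, with no threshold on their values. They are 7 of 17923 genes listed in the files, and they hold 23 of 22725 listed transcripts. Between 16 and 23 of the 23 transcripts were listed in a library, because the files hold only transcripts with an FPKM (fragments scaled to transcript length and library size) of at least 0.01. A transcript absent from a library's file is given here as 0.

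All lines were cultured from thyroid tumors of mice carrying BrafV600E, the activating mutation of the kinase Braf. Lines labelled BVE-Ctnnb1wt (2 libraries) had an intact β-catenin gene, Ctnnb1. In those labelled BVE-Ctnnb1null (3 libraries) it was deleted. The labels call all 5 thyroid epithelial cells. Both wt libraries are of the line BVE at passage 20. One (replicate 1, here wt1) was grown without thyroid-stimulating hormone (TSH) and the other (replicate 2, wt2) with it. The null libraries are of BVECTN_4 at passage 8 without TSH (replicate 1, null1), of BVECTN_4A at passage 11 (replicate 2, null2) and of BVECTN_5 at passage 7 (replicate 3, null3). For null2 and null3 no TSH status is labelled. The protocol gives about 25 passages for wt and 20 for null lines. Line, passage and genotype therefore cannot be told apart, and the wt libraries are one line, so a p-value between the groups measures only the spread between these libraries. The estimated counts summed to between 29360002 and 30713079 per library, so that a count of 0 allows up to 3 counts, or 0.10 CPM (counts relative to the library total). Ctnnb1 itself had an FPKM of 59.3 and 73.8 in wt1 and wt2 and of 124.6, 196.3 and 117.8 in null1, null2 and null3. Its FPKM was thus higher in all 3 null libraries, as for 35.0% of the 13240 genes tested. In counts normalized by TMM, edgeR's scaling between libraries, the groups overlapped, with 343.8 CPM in null3 and 356.4 in wt2. The log2 fold change, null against wt, was 0.55 (adjusted p = 0.517, edgeR's quasi-likelihood test). Deleted exons and other parts of Ctnnb1 are not counted apart in the files, so this level cannot test the deletion. The labels are kept here as names.

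Esrp1 (NCBI gene 207920) and Esrp2 (NCBI gene 77411) varied most between the null libraries. Esrp1 had an FPKM of 0.59 and 0.54 in wt1 and wt2, 16.15 in null1, 0.01 in null2 and 4.31 in null3. These levels rested on 71, 65, 1891, 1 and 496 counts. Null1 was thus the highest and null2, with a single count, the lowest of all 5, and both wt libraries lay between null2 and null3. Esrp2 had an FPKM of 0.91 and 0.53 in wt1 and wt2 and of 19.89, 0.29 and 1.86 in null1, null2 and null3, from 75, 44, 1611, 23 and 148 counts. The order of the libraries was that of Esrp1, with null1 above all others and null2 below. Each gene had 1 listed transcript, so no share could be formed for either. Null against wt, the log2 fold change was 3.09 (standard error, SE, 2.04) for Esrp1 and 2.89 (SE 1.69) for Esrp2. Neither passed the threshold (adjusted p = 0.437 and 0.391, edgeR's quasi-likelihood test on TMM-normalized counts with Benjamini-Hochberg adjustment). Without null1 the log2 fold change was 1.24 for Esrp1 and -0.08 for Esrp2, so the group difference rested largely on that library. Across the alternatives the log2 fold change lay between -0.25 and 3.57 for Esrp1 and between -0.08 and 3.36 for Esrp2.

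Rbfox2 (NCBI gene 93686) had its lowest level in the library with the most Esrp1. Its FPKM was 15.35 and 10.91 in wt1 and wt2, 7.8 in null1, 25.17 in null2 and 35.81 in null3. Both null2 and null3 exceeded the wt libraries, and null3 had both the highest Rbfox2 and a clear Esrp1 level. The groups overlapped, and the log2 fold change was 0.20 (SE 0.63, adjusted p = 0.883, edgeR), with values between -0.44 and 0.57 across the alternatives.

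**Figure D1:**
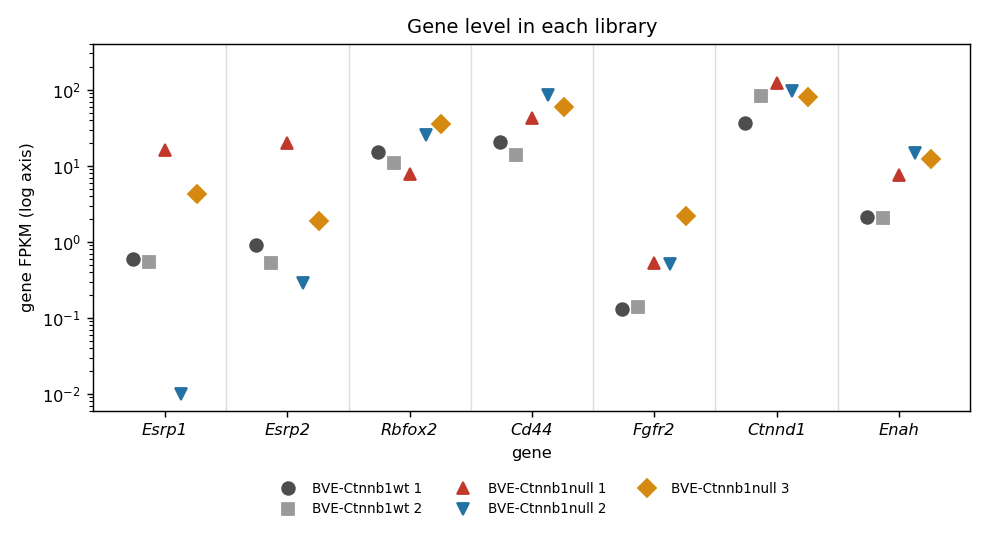
Gene FPKM (log axis) of the 7 genes in each of the 5 libraries, with 1 point per library and shapes and colours for BVE-Ctnnb1wt 1 and 2 and BVE-Ctnnb1null 1, 2 and 3. Esrp1 spans 0.01 to 16.15 and Esrp2 0.29 to 19.89 among the null libraries, while Cd44, Fgfr2 and Enah lie higher in all 3 null libraries than in both wt libraries.

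Of the 4 target genes, Cd44, Fgfr2 and Enah had a higher FPKM in all 3 null libraries than in both wt libraries. Such a gap was common, since 35.0% of the 13240 genes tested showed it in this direction (7.05% in the other and 42.1% in either). Of all genes tested, 0 passed an adjusted p under 0.05 in edgeR, none of the 7 among them, while 1646 (12.4%) were higher and 804 (6.07%) lower in null at an unadjusted p under 0.05. DESeq2 called 1113 genes (8.41%) higher and 487 (3.68%) lower, and of the 7 it called Enah. The same edgeR test over 16672 transcripts called 0, and the test of transcript usage, which asks whether a transcript changed apart from its gene, called 0 of 5936. At an unadjusted p under 0.05, 1493 transcripts (8.96%) were higher and 933 (5.6%) lower, and in usage 256 (4.31%) were higher and 38 (0.64%) lower. DESeq2 called 1139 transcripts (6.83%) higher, among them NM_001083121 of Enah (log2 fold change 1.68), and 517 (3.1%) lower. All 7 genes and their 23 transcripts passed the filter on low counts and are among those tested. Since none was called between the labelled groups in edgeR, the values are given library by library.

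Cd44 (NCBI gene 12505) encodes the receptor of hyaluronan at the cell surface. Its transcripts differ in a block of variable exons that code for part of the extracellular stem. CD44s, the standard form of mesenchymal cells, skips the whole block, and ESRP proteins favour its inclusion. The forms are shown here because the libraries differed most in them. In CD44s (NM_001039151) the constant exons meet directly, with 15 bases taken from each side of the junction.
Cd44 junction without variable exons: gcaccttggccaccagagatcgagactcat
NM_001177786 instead holds v8 to v10 between those same sides. The next lines show v8 (102 bases, chr2:102834234-102834335) and v10 (207 bases, chr2:102831330-102831536) in capitals, both on the minus strand of GRCm38, with 15 bases of the neighbouring exons in lower case. The v8 line opens with the left side of the junction above and the v10 line closes with its right side.
Cd44 v8: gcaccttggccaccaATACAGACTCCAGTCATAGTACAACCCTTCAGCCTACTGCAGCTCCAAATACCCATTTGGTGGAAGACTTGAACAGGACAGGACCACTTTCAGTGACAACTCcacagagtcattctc
Cd44 v10: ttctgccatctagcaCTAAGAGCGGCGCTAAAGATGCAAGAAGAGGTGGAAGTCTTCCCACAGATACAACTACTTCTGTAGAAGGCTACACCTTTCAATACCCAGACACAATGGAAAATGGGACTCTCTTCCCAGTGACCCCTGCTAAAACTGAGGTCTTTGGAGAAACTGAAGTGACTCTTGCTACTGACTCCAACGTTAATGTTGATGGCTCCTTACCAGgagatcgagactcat

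The total Cd44 FPKM was 20.4 and 13.95 in wt1 and wt2 and 42.85, 84.5 and 59.4 in null1, null2 and null3. CD44s made up 95% and 88.8% of it in wt1 and wt2, 2.80% in null1, 97.0% in null2 and 67.3% in null3. So CD44s was nearly the whole of Cd44 in the wt libraries and null2, the 3 libraries with least Esrp1, and a minor form in null1, where Esrp1 was highest. In FPKM, CD44s was 19.4 and 12.4 in wt1 and wt2 and 1.20, 81.9 and 39.95 in null1, null2 and null3, so that its level in null1 was low although total Cd44 was above that of both wt libraries. The form with v8 to v10 (NM_001177786) had a share of 0% and 6.16% in wt1 and wt2 and of 44.2%, 1.18% and 22.5% in null1, null2 and null3. The form with v6 to v10 (NM_001039150) had 2.60% and 5.09% in wt1 and wt2 and 45.8%, 0.79% and 9.01% in null1, null2 and null3. Both forms were highest in null1 and next in null3, and null3 held more of the shorter than of the longer one. The other 3 Cd44 transcripts each stayed under a share of 5% in every library.

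Summed over transcripts, those with v10 took 5.0% and 11.25% of Cd44 in wt1 and wt2 and 97.2%, 3.02% and 32.7% in null1, null2 and null3. Those with v6 took 3.48% and 5.09% in wt1 and wt2 and 50.2%, 0.96% and 9.35% in null1, null2 and null3. About as many Cd44 transcripts of null1 thus held v6 as skipped it, while nearly all held v10. The counting error was far smaller than these gaps. Of the Cd44 counts, CD44s held 2.49% in null1 (95% interval 2.13 to 2.91) and 96.65% in null2 (95% interval 96.3 to 97.0). Null3 had 64.97% (95% interval 63.9 to 66.0). These intervals are exact Clopper-Pearson binomial intervals of rounded counts. They cover counting error only and leave out the uncertainty of assigning a read to one transcript. Over 4582 transcripts, whose genes all had 100 counts or more in each library, the share ranged over a median of 22.55 percentage points between libraries. That of CD44s ranged over 94.2 points, above 98.1% of these transcripts, and those of the other 2 Cd44 forms given above lay above 80.8% and 81.6%. The range of NM_001085450 of Ctnnd1 lay above 82.5%, those of the other Ctnnd1 forms named here above 49.4% and 61.4%, and those of Enah and Rbfox2 above 7.8% to 50.5%. Fgfr2 had too few counts to be ranked.
Between the groups, the CD44s share was 91.9% ± 4.42 (SD, n = 2) in wt1 and wt2 and 55.7% ± 48.2 (SD, n = 3) in null, and they overlapped (two-sided exact permutation test, p = 0.5, 0.667 after Benjamini-Hochberg adjustment). The smallest p that 2 against 3 libraries allow in this test is 0.1. Without null1 the difference of the mean shares was -9.75 points against -36.19 points with it. Without null2 it was -56.84 points. The log2 fold change of the Cd44 gene was 1.32 (SE 0.44, adjusted p = 0.216, edgeR) and lay between 1.03 and 1.83 across the alternatives.

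**Figure D2:**
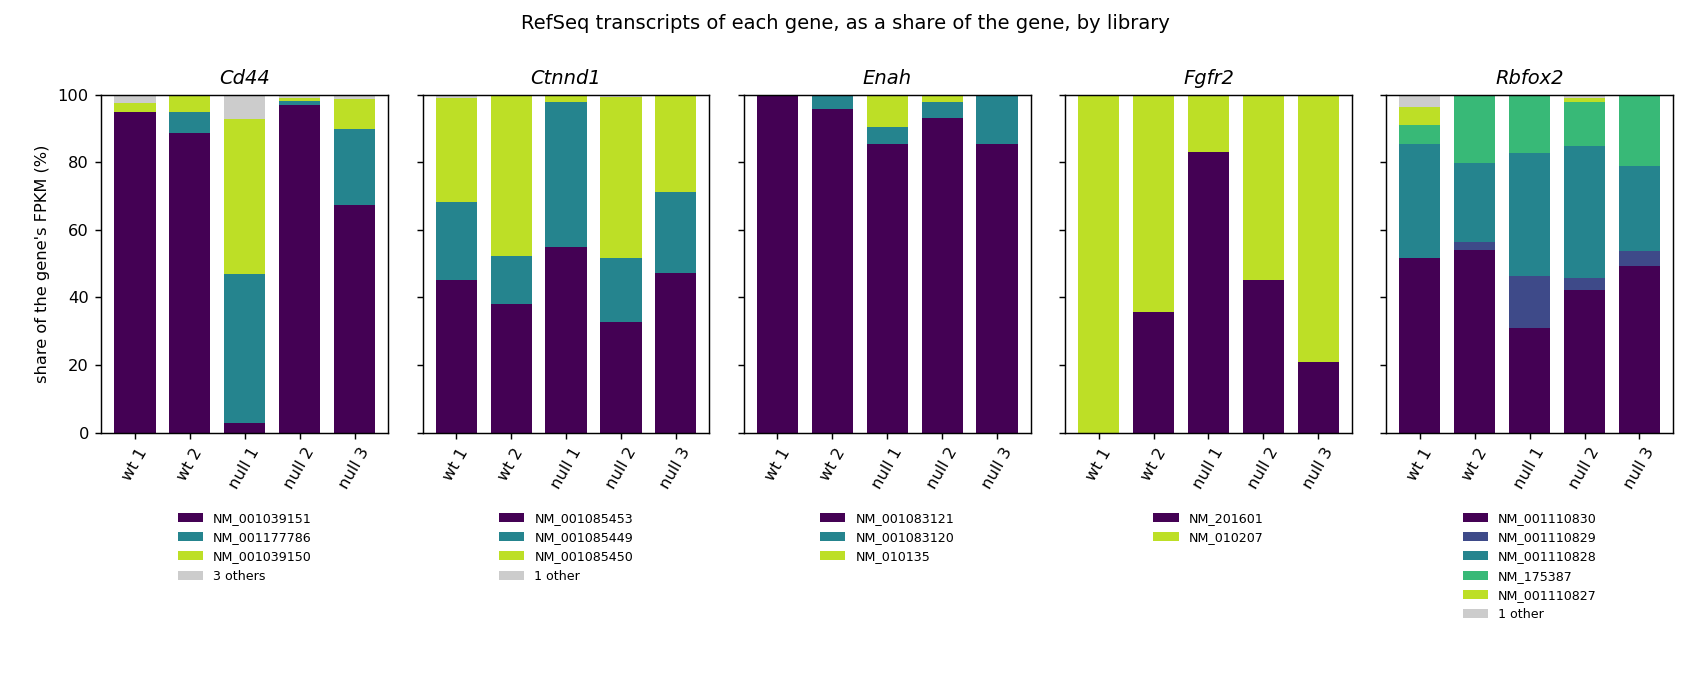
Share of each RefSeq transcript in the FPKM of its gene (percent, stacked to 100) in the 5 libraries, for Cd44, Ctnnd1, Enah, Fgfr2 and Rbfox2. Transcripts under 5% in every library are summed in grey. The CD44s bar (NM_001039151) falls to 2.80% in BVE-Ctnnb1null 1 and 67.3% in BVE-Ctnnb1null 3 against 88.8% or more in the others.

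Fgfr2 (NCBI gene 14183) encodes a receptor for fibroblast growth factors. Either exon IIIb or exon IIIc codes for the end of the third immunoglobulin domain of the receptor. Epithelial cells use IIIb, whose receptor binds FGF7 and FGF10, and mesenchymal cells use IIIc, whose receptor binds other FGFs. NM_201601 holds IIIb and NM_010207 holds IIIc. IIIb (148 bases, chr7:130199758-130199905, minus strand of GRCm38) is shown in capitals, between 15 bases of its neighbours, as the exon whose share set null1 apart.
Fgfr2 IIIb: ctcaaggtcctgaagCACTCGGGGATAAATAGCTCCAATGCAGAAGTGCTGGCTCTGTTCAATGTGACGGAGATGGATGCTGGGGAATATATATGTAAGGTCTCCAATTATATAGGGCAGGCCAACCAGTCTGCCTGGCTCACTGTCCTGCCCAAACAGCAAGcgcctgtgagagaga

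Fgfr2 was scarce. Its FPKM was 0.13 and 0.14 in wt1 and wt2 and 0.53, 0.51 and 2.20 in null1, null2 and null3, from 21, 23, 80, 77 and 338 counts. All null libraries exceeded wt1 and wt2, and the log2 fold change was 2.35 (SE 1.01, adjusted p = 0.275, edgeR). Without null3, the library with most Fgfr2, it was 1.28. The IIIb transcript had a share of 0% and 35.7% in wt1 and wt2 and of 83.0%, 45.1% and 20.9% in null1, null2 and null3. Null1 again stood at the epithelial end, but null2, with almost no Esrp1, had a larger IIIb share than null3. In counts, IIIb held 65 of 80 in null1 (exact 95% interval 71.0 to 89.1%), 34 of 77 in null2 (32.8 to 55.9%) and 67 of 338 in null3 (15.7 to 24.5%). The wt libraries had 0 of 21, which allows up to 16.1%, and 8 of 23 (16.4 to 57.3%). The intervals of the null libraries did not overlap, that of wt1 lay below that of null2, and that of wt2 was too wide to order it with null2. Both wt intervals overlapped that of null3. As for Cd44, the intervals cover counting error only and leave out the uncertainty of assigning a read to one transcript. They therefore do not settle the order of the libraries. In the file, the 2 transcripts differ elsewhere too, because NM_010207 has 2 further coding exons upstream, so reads from those exons also bear on the share. FGF7 and FGF10 are known as ligands of the IIIb form. Fgf7 had an FPKM of 7.30 and 10.87 in wt1 and wt2 and of 0.19, 14.4 and 29.5 in null1, null2 and null3, and Fgf10 had 3.85 and 2.57 in wt1 and wt2 and 0, 4.59 and 2.53 in null1, null2 and null3. Both ligands were thus lowest in the library with the highest IIIb share, and these genes were named after their values were seen.

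Ctnnd1 (NCBI gene 12388) encodes p120 catenin, which holds cadherins at the cell surface. Mesenchymal cells are known to use its first start codon and make the long form, and epithelial cells often skip the exon with that start and make a shorter one. The coding part of that exon (195 bases, chr2:84624270-84624464, minus strand of GRCm38) is shown in capitals from its start codon, with 15 bases of the next exon. NM_001085449 lacks it.
Ctnnd1 exon of the first start: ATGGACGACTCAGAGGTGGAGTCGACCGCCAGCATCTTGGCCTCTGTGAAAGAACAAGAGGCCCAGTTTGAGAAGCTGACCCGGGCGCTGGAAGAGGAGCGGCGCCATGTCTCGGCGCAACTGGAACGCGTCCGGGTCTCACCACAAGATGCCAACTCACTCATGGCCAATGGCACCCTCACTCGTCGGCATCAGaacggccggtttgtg
A second alternative exon, of 18 bases (chr2:84612532-84612549, minus strand), is shown because its share moved most within Ctnnd1. It is in capitals between 15 bases of its neighbours.
Ctnnd1 exon of 18 bases: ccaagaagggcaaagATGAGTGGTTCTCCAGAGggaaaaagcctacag

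Ctnnd1 was abundant in all libraries, with an FPKM of 36.9 and 82.9 in wt1 and wt2 and of 121.0, 95.3 and 81.1 in null1, null2 and null3. Its groups overlapped, and the log2 fold change was 0.10 (SE 0.53, adjusted p = 0.932, edgeR). The short form NM_001085449 had a share of 23.1% and 14.3% in wt1 and wt2 and of 43.1%, 19.1% and 24.2% in null1, null2 and null3. It was highest in null1, while null3 was close to wt1. NM_001085450, a long form with the 18-base exon and another of 63 bases, had 30.8% and 47.7% in wt1 and wt2 and 1.85%, 47.6% and 28.7% in null1, null2 and null3. In null1 it was thus a trace, and the 18-base exon, summed over transcripts, was in 2.05% of Ctnnd1 there against 28.7% to 48.2% in the other 4 libraries. The 63-base exon was steadier, in 54.8% and 62.0% in wt1 and wt2 and in 45.2%, 67.3% and 52.9% in null1, null2 and null3. NM_001085453, the long form without either exon, had 45.2% and 38.0% in wt1 and wt2 and 54.8%, 32.7% and 47.1% in null1, null2 and null3, so null1 had most of this long form as well. The exon of the first start was in 76.9% and 85.7% in wt1 and wt2 and in 56.9%, 80.9% and 75.8% in null1, null2 and null3. The long forms together therefore remained the larger part of Ctnnd1 in every library, null1 included. NM_007615 stayed at or under 0.95%.

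Enah (NCBI gene 13800) encodes Mena, a protein that lengthens actin filaments at the leading edge of cells. Its FPKM was 2.15 and 2.05 in wt1 and wt2 and 7.49, 14.7 and 12.5 in null1, null2 and null3, so all null libraries exceeded wt1 and wt2. The log2 fold change was 1.89 (SE 0.51). It missed the threshold in edgeR (adjusted p = 0.191) and passed it in DESeq2 (1.80, adjusted p = 0.00808), and it lay between 1.63 and 2.40 across the alternatives. The short form NM_001083121, which lacks 732 coding bases that NM_001083120 holds, had a share of 100% and 95.6% in wt1 and wt2 and of 85.5%, 93.2% and 85.5% in null1, null2 and null3. NM_001083120 had 0% and 4.39% in wt1 and wt2 and 4.94%, 4.77% and 14.5% in null1, null2 and null3. NM_010135, with a further exon of 57 bases, was absent from both wt libraries and null3 and had 9.61% and 2.04% in null1 and null2. The short form was the main one in every library, with its 2 lowest shares in null1 and null3. The wt shares rest on 232 and 225 Enah counts, where 0 counts of a form allow up to 1.58% and 1.63%. The exon of Enah that ESRP proteins are known for, 11a, could not be followed, because 0 of the listed RefSeq transcripts hold a coding exon of 63 bases, its length. In the GENCODE M21 annotation 1 transcript has one.

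Rbfox2 makes several forms of its own RNA. In its carboxy-terminal region an exon of 40 bases (chr15:77094451-77094490) is replaced by one of 43 bases (chr15:77091812-77091854, both minus strand of GRCm38) in NM_001110829. The latter is known as the exon of muscle. They are in capitals between identical flanks of 15 bases.
Rbfox2 exon of 40 bases: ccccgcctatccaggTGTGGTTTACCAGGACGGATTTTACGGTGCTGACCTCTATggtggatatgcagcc
Rbfox2 exon of 43 bases: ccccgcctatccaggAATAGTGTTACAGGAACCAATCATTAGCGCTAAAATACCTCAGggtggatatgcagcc

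The form with the 43-base exon had a share of 0% and 2.38% in wt1 and wt2 and of 15.4%, 3.34% and 4.44% in null1, null2 and null3. It was highest where Rbfox2 was lowest, and all 3 null libraries were above both wt libraries. NM_001110830, the leading form in each library but null1, had 51.5% and 53.9% in wt1 and wt2 and 31.0%, 42.3% and 49.3% in null1, null2 and null3, all below the wt libraries. NM_001110828 had 33.9% and 23.4% in wt1 and wt2 and 36.3%, 39.1% and 25.2% in null1, null2 and null3. NM_175387, which starts upstream and holds neither of these exons, had 5.67% and 20.35% in wt1 and wt2 and 17.3%, 13.1% and 20.97% in null1, null2 and null3. For this last form the wt libraries differed from each other by nearly as much as all 5 libraries did. NM_001110827 reached 5.28% in wt1 and at most 1.11% elsewhere, and NM_053104 stayed at or under 3.58%.

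Over the 5 genes with several transcripts, 16 transcripts reached 5% of their gene in some library. The shares of 12 overlapped between the groups. In null, 2 were higher in all 3 libraries (NM_001110829 of Rbfox2 and NM_001083120 of Enah) and 2 were lower (NM_001110830 of Rbfox2 and NM_001083121 of Enah). This is close to the background, where 22.2% of 6547 transcripts did not overlap, 11.2% higher and 11% lower. Every adjusted p of the exact permutation tests over these transcripts was at least 0.667. Cd44, Fgfr2 and Ctnnd1 had no transcript among the 4, although their shares differed most between single libraries.

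**Figure D3:**
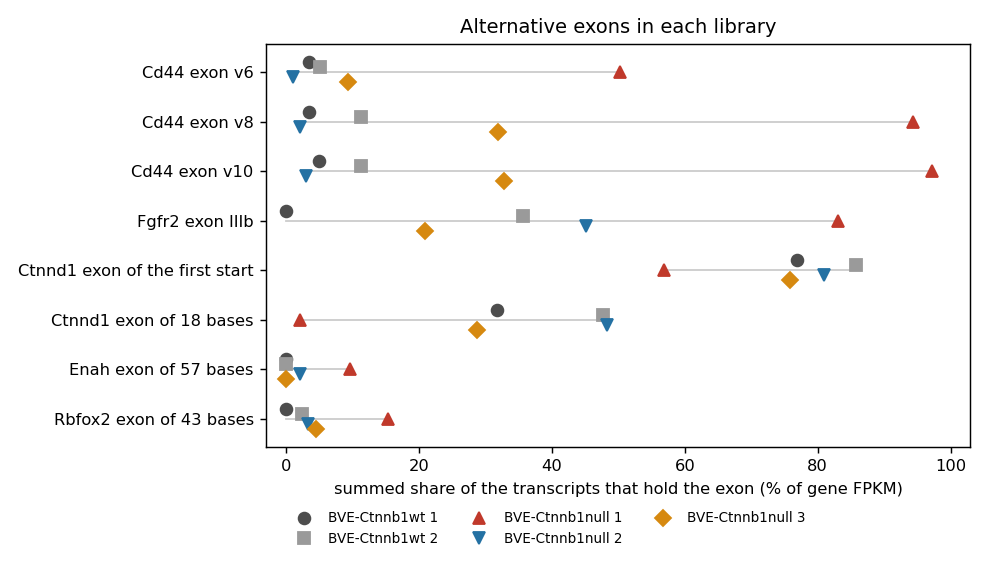
Summed share of the transcripts that hold each alternative exon (percent of gene FPKM, horizontal axis), with 1 point per library and a grey line over the range. BVE-Ctnnb1null 1 lies at an end of each line, for example at 97.2% for Cd44 exon v10 and 2.05% for the Ctnnd1 exon of 18 bases, while BVE-Ctnnb1null 3 lies between it and the wt libraries for the Cd44 exons v6, v8 and v10 but not for Fgfr2 exon IIIb.

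Among 12 other genes known as ESRP targets, Arhgef11, Scrib, Itga6 and Fnip1 had 1 listed transcript each, so no share could be formed for them. Exoc7 had 2 listed transcripts, whose shares ranged over 4.4 points. The widest range was 8.9 points in Macf1, 22.5 in Slc37a2, 31.4 in Mprip, 31.7 in Magi1, 41.2 in Numb and 100 in Ralgps2. The next genes were named after their values were seen. Mprip, which encodes a partner of myosin phosphatase, had a share of NM_201245 of 0.8% and 4.0% in wt1 and wt2 and of 32.2%, 2.7% and 20.4% in null1, null2 and null3. As for the Cd44 exons v6 to v10, null1 had the highest value and null3 the next. Numb, an endocytic adaptor of Notch signaling, had a transcript (NM_001272056) that was at 0% in both wt libraries and null2 and at 20.4% and 23.7% in null1 and null3. Ralgps2 had NM_001159965 at 0% in the same 3 libraries and at 91.8% and 27.9% in null1 and null3, but the wt libraries had only 50 and 25 counts of the gene. The leading transcript differed between libraries in Numb and Ralgps2. This is frequent, since it differed in 34.4% of 1980 genes with several transcripts and 100 counts or more in each library. Ralgps2, with 50 and 25 counts in wt1 and wt2, is not among those genes.
At the gene level, 0 of the 12 were called by edgeR and 3, all higher, by DESeq2 (8.41% of all genes were), with a median log2 fold change of 0.97 against 0.29 over all genes. The smallest p-values were those of Macf1 (log2 fold change 1.75, adjusted p = 0.192), Ralgps2 (3.66, adjusted p = 0.194), Fnip1 (2.79, adjusted p = 0.203) and Itga6 (2.12, adjusted p = 0.239).

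Of 28 splicing regulators, 27 were tested and edgeR called 0. Their median log2 fold change was 1.16, against 0.29 over all genes tested, with 22 above 0 and 5 below, where 59.3% of all genes tested were above 0. An unadjusted p under 0.05 was found for 7, all higher in null (12.4% of all genes tested). DESeq2 called 6 of them higher (8.41% of all genes) and 0 lower (3.68%). These shares and the median of all genes are also the background of the lists that follow. Rbm47, an RNA-binding protein of epithelial cells, had an FPKM of 0.02 and 0 in wt1 and wt2 and of 6.23, 1.03 and 0.66 in null1, null2 and null3 (adjusted p = 0.187, edgeR). Its highest level was in the library with most Esrp1, and it was also above the wt libraries where Esrp1 was at 1 count. Ptbp3, a paralog of the polypyrimidine tract-binding protein, had 0.19 and 0.14 in wt1 and wt2 and 2.65, 4.08 and 4.37 in null1, null2 and null3 (log2 fold change 3.89, adjusted p = 0.18, edgeR). Mbnl1, a muscleblind protein, had 0.99 and 0.72 in wt1 and wt2 and 5.32, 10.5 and 6.73 in null1, null2 and null3 (2.58, adjusted p = 0.18). Khdrbs3, a STAR family protein, was absent from both wt libraries and had 0.43, 5.32 and 8.51 in null1, null2 and null3.
Among 14 FGF receptors and ligands, 9 were tested, 0 were called by edgeR and 2, both higher, by DESeq2 (8.41% of all genes), and the median log2 fold change was 1.55 against 0.29. Fgfr1, with the highest mean of this list (Fgfrl1 exceeded it in wt2 and null1, and Fgf7 in wt2), had an FPKM of 8.01 and 7.78 in wt1 and wt2 and of 33.55, 37.1 and 33.5 in null1, null2 and null3 (log2 fold change 1.55, adjusted p = 0.191, edgeR). It was thus more abundant than Fgfr2 in every library. The signaling adaptor Frs2 followed (1.77, adjusted p = 0.202), and Fgf1, with 0.11 and 0.03 in wt1 and wt2 and 1.02, 4.42 and 0.03 in null1, null2 and null3, had an adjusted p of 0.3.
Of 11 genes of CD44, its ligands and partners, 10 were tested and all 10 had a log2 fold change above 0 (59.3% of all genes did), with a median of 1.69 against 0.29. EdgeR called 0 and DESeq2 3, all higher (8.41% of all genes). Spp1, which encodes the CD44 ligand osteopontin, had 71.15 and 22.05 FPKM in wt1 and wt2 and 373.2, 5234 and 1125 in null1, null2 and null3 (5.0, adjusted p = 0.191, edgeR). Its highest level was in the library with the most CD44s. Met, a receptor that the v6 form of CD44 assists, had 1.49 and 1.15 in wt1 and wt2 and 5.39, 7.8 and 6.44 in null1, null2 and null3 (1.73, adjusted p = 0.191). Has3, a hyaluronan synthase, had 0.02 in each wt library and 1.34, 0.48 and 0.06 in null1, null2 and null3 (4.47, adjusted p = 0.229).
Of 15 genes of p120 catenin, Mena and their partners, all were tested, 0 were called by edgeR and 3, all higher, by DESeq2 (8.41% of all genes), and the median was 0.44 against 0.29. Beside Enah, the smallest p-values were those of Zbtb33, which encodes the p120-binding repressor Kaiso (1.90, adjusted p = 0.207), Cdh11, a mesenchymal cadherin (3.41, adjusted p = 0.223), and Raph1, a partner of Ena/VASP proteins (2.26, adjusted p = 0.263).

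Genes of the epithelial and mesenchymal states also differed between the libraries, with null1 and null2 at opposite ends for both summed lists. Their part in the Esrp1, Esrp2 and Cd44 values was not tested. The summed FPKM of 20 epithelial genes was 1122 and 1797 in wt1 and wt2 and 14792, 707 and 1531 in null1, null2 and null3. In null3, whose sum lay between those of wt1 and wt2, 17 of the 20 genes were above both wt libraries and 1, Krt8, was below. In null1 all 20 were above, and in null2 none was above and 16 were below. Krt7, a keratin of simple epithelia, had the highest mean over the libraries, with 79.65 and 124.0 in wt1 and wt2 and 5131, 111.0 and 461.3 in null1, null2 and null3. Krt8 and Krt18 exceeded it in wt1, wt2 and null2. Null2 had at most 3 counts for 11 of the 20 genes, and Cdh1 (E-cadherin), Epcam, Ocln, Grhl1, Ovol1 and Ovol2 were at 0 there. Cdh1 had 1.94 and 1.62 in wt, 135.7 in null1 and 20.9 in null3, and Epcam had 5.04 and 4.61 in wt, 152.05 in null1 and 59.6 in null3. The keratins were still present in null2, where Krt8 had 230.5 FPKM, below its 634.4 and 1104 in wt1 and wt2, and Krt18 had 346.3, between its 320.5 and 457.1 there. All 20 were tested, edgeR called 0 and DESeq2 2, and the median log2 fold change was 3.73. Spint1 (4.66, adjusted p = 0.296), Marveld2 (4.12, adjusted p = 0.3) and Marveld3 (4.69, adjusted p = 0.32) followed Krt7 (3.71, adjusted p = 0.287) in the edgeR test.
The summed FPKM of 17 EMT transcription factors and mesenchymal genes was 2387 and 5068 in wt1 and wt2 and 372.5, 5472 and 4579 in null1, null2 and null3. In null1, 3 of the 17 genes were above both wt libraries and 12 were below. Null2 had 8 above and 7 below, and null3 had 12 above and 2 below. By number of genes, null3 and not null2 thus lay opposite to null1. Vim, the mesenchymal filament protein, had the highest mean (Fn1 exceeded it in null1), with 1478 and 3406 in wt1 and wt2 and 85.1, 2864 and 1401 in null1, null2 and null3. Zeb1, a known repressor of Esrp1 and Cdh1, had 1.70 and 1.39 in wt1 and wt2 and 0.02, 8.09 and 5.36 in null1, null2 and null3. Zeb1 was thus lowest where Esrp1 was highest and highest where Esrp1 was lowest, but null3 had more of both genes than either wt library. Twist1 had 32.5 and 36.1 in wt1 and wt2 and 0.02, 30.4 and 65.0 in null1, null2 and null3. Col3a1, Pdgfrb and Acta2 were at 0 in null1. Of the 17, edgeR called 0 and DESeq2 1, with a median of 0.66, and the smallest p-values were those of Fn1 (1.19, adjusted p = 0.231), Snai2 (3.77, adjusted p = 0.253), Snai1 (-1.72, adjusted p = 0.289) and Thy1 (6.77, adjusted p = 0.305).

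**Figure D4:**
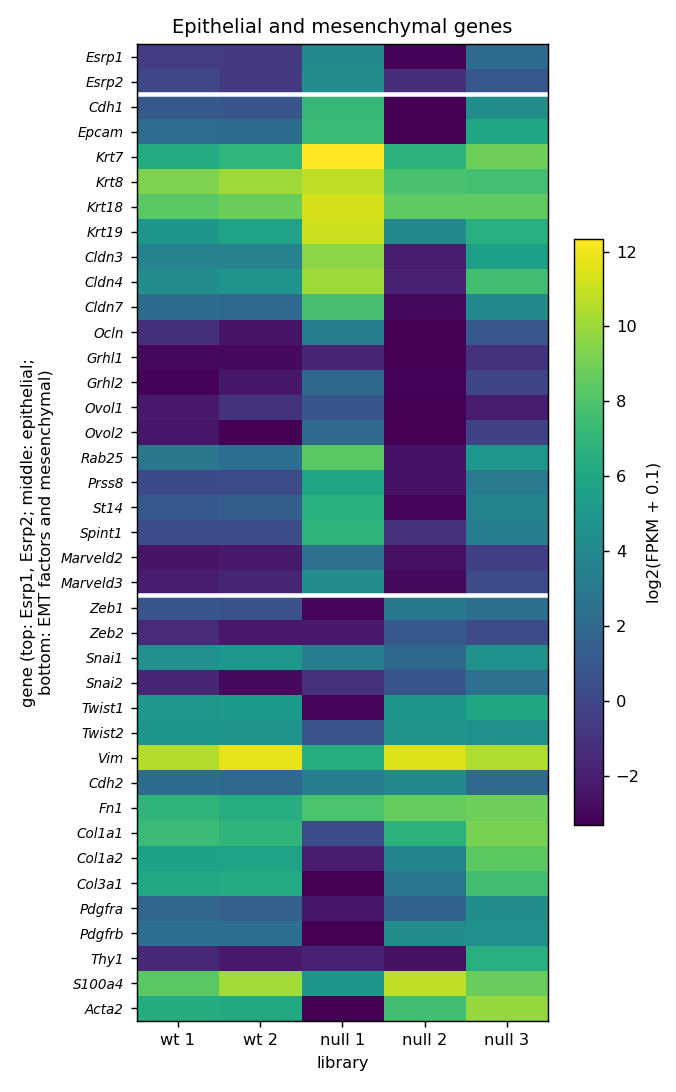
Level of Esrp1, Esrp2, 20 epithelial genes and 17 EMT transcription factors and mesenchymal genes, as log2(FPKM + 0.1) in colour, in the 5 libraries (columns). BVE-Ctnnb1null 1 is highest for Esrp1, Esrp2 and most epithelial genes and lowest for Zeb1, Twist1 and Vim. BVE-Ctnnb1null 2 has Cdh1 and Epcam at 0, and BVE-Ctnnb1null 3 has genes of both kinds.

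Null3, where both CD44s and the forms with v8 to v10 were found, also held fibroblast genes. The summed FPKM of 9 fibroblast markers was 290.0 and 255.0 in wt1 and wt2 and 1.70, 148.05 and 1413 in null1, null2 and null3, with Col1a1 the most abundant. Postn, Dcn and Thy1 were at 101.6, 84.7 and 88.5 there and at most 0.24 in any other library, while Lum was at 0.02. Of the 9, 7 were tested and 0 were called by edgeR or DESeq2, with Postn (adjusted p = 0.269), Pdgfra (0.818) and Pdgfrb (0.83) next to Thy1. Cells of different kinds side by side and cells that each make both forms cannot be told apart in a bulk library, and neither can fewer cells of a type and less RNA per cell. The part of fibroblasts in the CD44s share of this library was not tested. The 7 endothelial markers summed to at most 0.73 FPKM in any library, and none exceeded 3 counts in wt1 or wt2. Kdr had 102 counts (0.62 FPKM) in null3 and 4 and 1 in null1 and null2. Of 8 immune markers, Ptprc, Adgre1 and Cd3e were not listed in any library. Cd68, the most abundant, had 6.09 and 14.2 in wt1 and wt2 and 59.8, 1.00 and 39.9 in null1, null2 and null3, Lyz2 reached 1.39 and Csf1r 0.37. Of the immune markers 3 were tested and 0 called by edgeR or DESeq2, and 0 endothelial markers passed the filter.
As to the label of thyroid cells, the defining product Tg was at 0.80 and 0.86 in wt1 and wt2 and 0.04, 0.51 and 0.34 in null1, null2 and null3. The thyroid factor Nkx2-1, with the highest mean of 15 thyroid markers, had 9.21 and 15.02 in wt1 and wt2 and 9.26, 34.8 and 0.26 in null1, null2 and null3, and Pax8 had 0.40 and 0.17 in wt1 and wt2 and 18.15, 12.8 and 2.56 in null1, null2 and null3. Pax8 exceeded Nkx2-1 in null1 and null3. Null3 had the least Nkx2-1, and Tg was under 1 FPKM throughout. Of these markers 7 were tested, with 0 called by edgeR and 1 by DESeq2, and with Pax8 (4.75, adjusted p = 0.18), Tg (-2.13, adjusted p = 0.3), Duox1 (3.35, adjusted p = 0.432) and Slc5a5 (1.24, adjusted p = 0.751) first in order.

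Among 10827 genes with a mean FPKM of at least 1, those closest to each regulator over the 5 libraries were found by the root mean square difference of centred log2(FPKM + 0.1) values. Closest to Esrp1 were S100a7a (0.204), B4galnt3 (0.328) and Lama3 (0.334), which all peaked in null1, followed in null3 and were at most at 0.02 FPKM in null2. Lama3, a laminin chain of epithelial basement membrane, had 1.01 and 0.43 in wt1 and wt2 and 19.9, 0.02 and 6.28 in null1, null2 and null3. Closest to Esrp2 were Slc23a3 (0.222), Tuba8 (0.228) and Gm14685 (0.247). Tuba8, an α-tubulin, had 1.03 and 0.86 in wt1 and wt2 and 22.6, 0.48 and 3.10 in null1, null2 and null3. Esrp2 was only the 122nd gene by likeness to Esrp1 (0.965). The level of Esrp2 dropped less in null2 and lay lower in null3. Closest to Rbfox2 were Armcx6 (0.058), Tspan5 (0.082) and Dnajc19 (0.094). Dnajc19, a mitochondrial import protein, had 21.8 and 17.5 in wt1 and wt2 and 13.1, 37.7 and 60.2 in null1, null2 and null3. With 5 points per gene, many genes can come close, and these lists are a description.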

How the data were processed

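The files that the authors deposited, 1 per library, list RefSeq transcripts with an estimated count (not always a whole number) and an FPKM, which is relative to transcript length and library size. The paper names TruSeq libraries on an Illumina HiSeq; the aligner, counting program, build and annotation are not given in the sources used here. Symbols came from RefSeq's genes of GRCm38.p6 for 17866 of the 17923 gene numbers. A transcript's share is its FPKM as a percent of the summed FPKM of its gene. Exons, their coordinates and sequences came from GENCODE M21 (GRCm38) through the RefSeq accession of each transcript, and no sequence came from the libraries.

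Counts were rounded, summed per gene or kept per transcript, and compared over all 5 libraries with edgeR 4.0.16 in R 4.3.3 (TMM, filterByExpr, glmQLFit, glmQLFTest, and diffSpliceDGE for usage), with Benjamini-Hochberg adjustment over all features tested and a threshold of 0.05. Alternatives were DESeq2 1.42.0, limma 3.58.1 on log2 of FPKM plus 0.1, 0.01 or 1, other count filters, the thresholds of the study's methods, the replicate number as a block, leaving out each library, and shares of counts in place of FPKM. Shares were compared with exact permutation tests over 10 splits (Python 3.11.15, scipy 1.17.1). The edgeR, DESeq2 and limma fits were tested on simulated data. In each simulation all genes had the same dispersion, so these runs do not show which fit suits the libraries here. The members and gene lists were chosen with earlier results of these data known. Named were the 7 genes, their transcripts with a share of at least 5% in a library, up to 4 genes of each list by p, the most abundant marker and markers at 0, and 3 genes most like each regulator. Exceptions are marked. A few list members and 1 exon sequence are not reported here.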

Additional observations from a re-analysis of the deposited data

How the results depend on the processing

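Genes called at an adjusted p under 0.05 numbered 0 in edgeR over 5 libraries. They numbered 1600 with DESeq2, 4 without a count filter, 1 with at least 10 counts in every library, and 6, 4 and 8 with limma on log2 of FPKM plus 0.1, 0.01 and 1. Transcripts called went from 0 to 1656 with DESeq2, 1 with at least 10 counts in every library, and 4 and 8 with limma at 0.1 and 1 added. List members called went from 0 to 21 with DESeq2. Transcripts with changed usage ranged from 0 to 2 when a library was left out, with 2 without null replicate 1. The causes were not tested. Esrp1 (1 count in null replicate 2) has no value under the filter of at least 10 counts in every library. Over the 11796 genes tested in each way, the median log2 fold change was 0.21 with TMM, 0.13 with DESeq2 and 0.61 on log2(FPKM + 0.1), and those of Cd44, Fgfr2 and Enah lay above it in each.

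The 4 transcripts without overlap between groups became between 4 and 10 when a library was left out, with 7 and 9 without wt replicates 1 and 2 and 10 and 8 without null replicates 2 and 3. Fewer libraries overlap less by construction. Leave-one-out log2 fold changes ranged from -0.08 to 3.36 for Esrp2, from -0.29 to 0.55 for Rbfox2 and from -0.51 to 0.85 for Ctnnd1. For transcripts they ranged from -0.26 to 1.33 for CD44s, -0.18 to 0.91 for NM_001085453, -1.71 to 0.46 for NM_001085450, -0.67 to 0.41 for NM_001110830, -0.10 to 0.76 for NM_001110828, -0.06 to 1.66 for NM_175387 and -3.73 to 7.10 for NM_001110827. NM_001110830 was also above 0 with at least 10 counts in every library (0.03) and with limma (0.18, 0.17 and 0.21). The usage change ranged from -0.02 to 0.40 for NM_001085453, -0.05 to 6.22 for NM_201601, -1.14 to 0.02 for NM_010207, -0.17 to 0.43 for NM_001110828, -0.20 to 1.64 for NM_175387 and -3.74 to 6.78 for NM_001110827. The difference of mean shares (percentage points) ranged from -1.70 to 9.37 for NM_001085453, -0.39 to 10.18 for NM_001110828, -3.23 to 11.45 for NM_175387 and -4.91 to 0.37 for NM_001110827.

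The replicate numbers did not pair the samples (correlation of deviations -0.121 and -0.115 for numbers 1 and 2). With the replicate block the counts of calls stayed 0, and the log2 fold change was -0.25 for Esrp1, -0.44 for Rbfox2, -1.27 for CD44s, -0.06 for NM_010207, -0.10 for NM_001110828 and -0.03 for NM_175387. Shares of counts in place of FPKM left the 4 transcripts without overlap at 4. Depth limits the Fgfr2 shares in the wt libraries most, with 21 and 23 counts. A share is also an estimate from reads that several transcripts of a gene hold in common, and no reads across single junctions were used here.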
